A study of Mus musculus with 4 samples.

Results

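The transcripts of 10 genes at the output end of the Hippo pathway were followed through the cell types of the mouse mammary gland with and without deletion of Lats1 and Lats2. The genes were Yap1 and Wwtr1, which encode the co-activators YAP and TAZ, the transcription factor genes Tead1, Tead3 and Tead4, the cofactor genes Vgll3 and Vgll4, and the angiomotin genes Amot, Amotl1 and Amotl2. They were taken by symbol from the 28693 genes listed in the count tables, and each symbol was listed once. Tead2 was left out because its symbol was listed more than once. UMI counts (1 UMI is 1 captured transcript) were summed per library within each cell lineage, and levels are given as CPM, the UMIs of a gene relative to all UMIs of that lineage in that library.

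There were 4 single-cell 3′ libraries of live cells sorted from mammary glands, 1 per mouse. The 2 CTL mice carried Lats1f/f;Lats2f/f and 1 R26-lsl-EYFP allele without Cre, and the 2 LATS1/2-KO mice carried the same floxed alleles with Krt8-CreERT2. LATS1/2-KO replicate 1 was heterozygous for R26-lsl-EYFP and replicate 2 was homozygous. Every mouse, CTL included, received 2 mg of tamoxifen on 5 days and was sampled 7 days after the last dose; the study used adult nulliparous animals, and no age is given per mouse. Krt8 drives the Cre in luminal cells, so basal and stromal cells of the LATS1/2-KO glands are not its intended target, and EYFP marks cells in which Cre has acted.

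LATS1 and LATS2 are kinases that phosphorylate YAP and TAZ and thereby hold them in the cytoplasm. When not phosphorylated, YAP and TAZ enter the nucleus and bind TEAD proteins, which sit on DNA but activate genes only with such a partner. VGLL proteins compete for the same TEAD surface, and VGLL4 is known as a repressor of YAP-dependent transcription. Angiomotins are junctional scaffold proteins that bind YAP and TAZ and can also bring them to LATS kinases, and Amotl2 is a widely used YAP/TAZ target. The phosphorylation, location and binding described here are properties of proteins, so transcript levels of these genes do not measure them.

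In the GRCm38 build with GENCODE M21 genes, Yap1 lies at chr9:7931999-8004596 on the minus strand and Wwtr1 at chr3:57455649-57575910 on the minus strand. Tead1 lies at chr7:112679318-112906807 on the plus strand, Tead3 at chr17:28331671-28350817 and Tead4 at chr6:128224288-128300823, both on the minus strand. Vgll3 lies at chr16:65815257-65866368 on the plus strand and Vgll4 at chr6:114860628-114969994 on the minus strand. The angiomotin genes lie at chrX:145446425-145505181 (Amot, minus strand), chr9:14541966-14645056 (Amotl1, minus strand) and chr9:102716672-102733418 (Amotl2, plus strand). None of the 10 overlapped another gene of the count tables on either strand.

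TEAD proteins bind the core GGAATG, which reads CATTCC on the other strand. RefSeq promoters of this build (250 bases before to 50 after the start site) were found for 8 of the 10 genes, with 11 promoters, and 8 of these promoters, from 6 genes, held the core on either strand. The core was found in 14.7% of all 32851 promoters of the table. Windows of 30 bases around the core are shown for 1 promoter of each of these 6 genes because TEADs, the partners of YAP and TAZ, bind these letters; capitals mark the core, and the sequences run 5′ to 3′ on the gene's strand.
Yap1: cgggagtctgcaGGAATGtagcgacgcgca
Wwtr1: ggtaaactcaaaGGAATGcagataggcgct
Tead3: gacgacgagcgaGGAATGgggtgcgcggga
Vgll3: cccgcctccccaCATTCCggctaccctgcc
Vgll4: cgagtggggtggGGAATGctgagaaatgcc
Amotl2: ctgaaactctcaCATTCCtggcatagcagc
The core began 141 bases before the start site in Yap1, 136 in Wwtr1, 182 in Tead3, 63 in Vgll3, 82 in Vgll4 and 65 in Amotl2. The windows lie at chr9:8004720-8004749, chr3:57576029-57576058, chr17:28350970-28350999, chr16:65815114-65815143, chr6:114969268-114969297 and chr9:102717727-102717756. The promoters of Amot and Amotl1 held no such letters. They lie at chrX:145487590-145487889 and chr9:14614951-14615250, inside the gene spans given above, and no other promoter of these genes was searched. No promoter was found for Tead1 and Tead4. Binding was not measured, and a match describes the letters only.

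Of 20324 barcodes, 18200 cells passed limits of 500 detected genes and 20% mitochondrial UMIs, with median depths of 5962.5 to 10141 UMIs per cell across the libraries; 43 barcode sequences occurred among the kept cells of more than 1 library. The 10 genes and their pathway lists were left out of the genes used for clustering. Luminal ER- cells numbered 3000 and 2156 in CTL and 2155 and 2184 in LATS1/2-KO, and luminal ER+ cells 1398 and 1043 against 488 and 146. Different clusters held the luminal ER- cells of the 2 genotypes: most CTL cells lay in 1 cluster led by Cck and Plet1, and the LATS1/2-KO cells in a cluster led by Wfdc18 and Wfdc3 and in a cluster led by Ankrd1 and cell cycle genes (1042 and 839 cells). An epithelial cluster led by Igfbp2, Msln and Crct1 (492 and 569 LATS1/2-KO cells, 2 CTL cells) held 3 luminal ER-, 4 luminal ER+ and 3 basal markers and was given no lineage name, since none of these led the others by 2 markers. Lats1 gave 25.7 and 25.3 CPM in luminal ER- cells of CTL and 13.3 and 15.6 CPM in those of LATS1/2-KO, whereas Lats2 stood at 15.1 and 16.8 against 27.4 and 29.2 CPM; 3′ counts need not cover the deleted exons. The summed level of the 10 basal markers in luminal ER- cells was 36.3 and 26 CPM in CTL and 1680 and 1373 CPM in LATS1/2-KO, and that of the 5 cycling markers 16.5 and 24.6 against 715 and 529 CPM, and their part in the results was not tested.

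The levels in CTL glands are a description over lineages with at least 20 cells in each library. Yap1 was highest in basal cells (61.3 and 73.1 CPM), followed by iCAF-like fibroblasts (51.0 and 55.7 CPM) and endothelial cells (49.2 and 46.6 CPM). Luminal ER+ cells (40.2 and 38.2 CPM) stood above luminal ER- cells (37.6 and 33.6 CPM) without overlap on this scale, though their libraries overlapped after TMM scaling (42.7 and 39.8 against 45.3 and 40.2 CPM), and lymphocytes held 0 and 2 UMIs. Wwtr1 was highest in endothelial cells (205 and 177 CPM). Luminal ER- cells (131 and 111 CPM) and basal cells (120 and 118 CPM) overlapped in Wwtr1, and luminal ER+ cells lay below both at 60.5 and 55.4 CPM.

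The TEAD genes differed in where they were found. In CTL glands, Tead1 was highest in basal cells (82.7 and 83.4 CPM), and stood at 33.4 and 31.6 CPM in luminal ER- and 24.2 and 24.5 CPM in luminal ER+ cells. Tead3 was low in all CTL lineages, with 18 and 14.5 CPM in luminal ER+ and 11.3 and 11.1 CPM in luminal ER- cells, and basal cells (14.3 and 20.5 CPM) overlapped the luminal ER+ cells. Tead4 gave no UMI in CTL basal cells or fibroblasts, which allows up to 2.17 and 7.79 CPM over both libraries, and 2.39 and 3.40 CPM in luminal ER- cells. The 24 adipocytes of LATS1/2-KO replicate 2, the only library with any, held Tead1 at 299 CPM. Endothelial cells held Tead4 at 24.5 and 18.3 CPM in LATS1/2-KO and at 4.10 and 28.0 CPM in CTL glands, the latter from 1 and 6 UMIs. The genotypes overlapped there, with a log2 fold change of 0.52 ± 0.65 (adjusted p = 0.716 by edgeR).

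Among the cofactors, Vgll3 was near absent from CTL luminal cells, with 1 UMI in each luminal ER- sum and 1 and 0 UMIs in the luminal ER+ sums. It was present in CTL basal cells at 3 UMIs in each library and in iCAF-like fibroblasts at 6 and 1 UMIs. Vgll4 was highest in lymphocytes, at 365 and 286 CPM in CTL, and luminal ER- cells followed at 133 and 111 CPM. Basal cells (85.5 and 80.4 CPM) and endothelial cells (94.3 and 103 CPM) lay between these and the luminal ER+ cells (63.9 and 61.7 CPM).

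The angiomotin genes had unlike patterns. Amotl1 was highest in CTL basal cells at 161 and 149 CPM and lowest, among the epithelial lineages, in luminal ER+ cells at 16.2 and 12.5 CPM. Amot was low in CTL epithelium, at 8.46 and 8.18 CPM in luminal ER-, 3.23 and 3.49 CPM in luminal ER+ and 12.8 and 8.78 CPM in basal cells. Amotl2 stood at 50.9 and 54.7 CPM in luminal ER- and 30.5 and 35.4 CPM in luminal ER+ cells, and the CTL basal libraries (31.4 and 59.97 CPM) overlapped both. The plot of levels by lineage shows all 10 genes in every library.

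**Figure D1:**
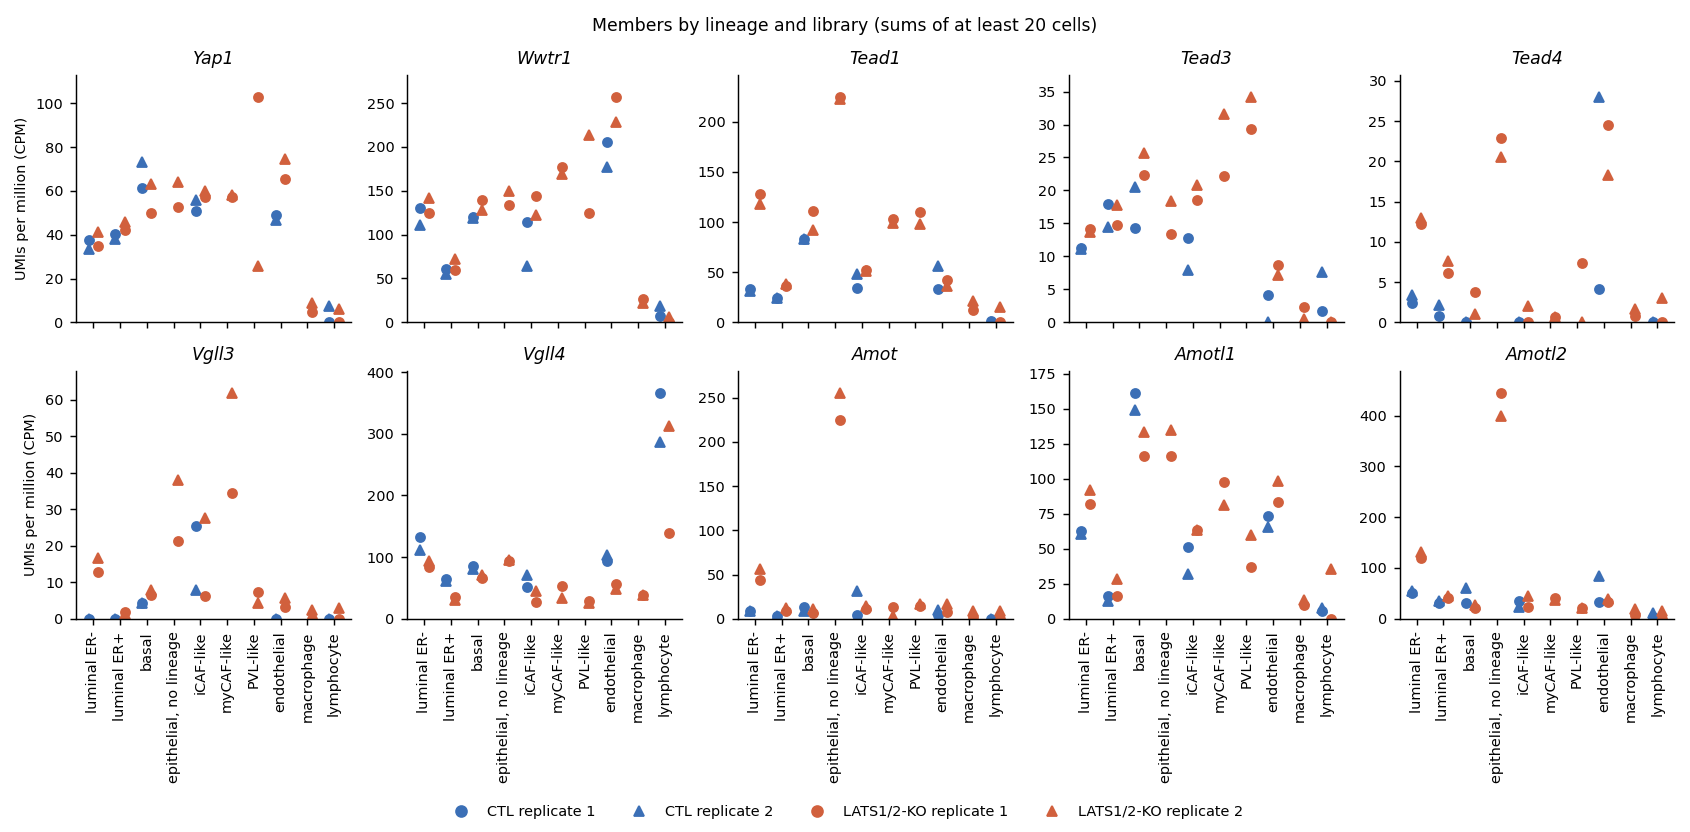
Level of each gene (y axis, CPM, from 0) in each lineage (x axis) and library, for sums of at least 20 cells (adipocytes are not drawn); blue stands for CTL and orange for LATS1/2-KO, circles for replicate 1 and triangles for replicate 2. Amot and Amotl2 stand highest in the LATS1/2-KO epithelial cells without a lineage name, Vgll4 in lymphocytes and Wwtr1 in endothelial cells.

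LATS1/2-KO was first compared with CTL in luminal ER- cells, the lineage in which most EYFP+ cells lay. Of the 10 genes, 5 were higher (Tead1, Tead4, Vgll3, Amot and Amotl2) and 1 was lower (Vgll4). Of these, Vgll3 passed the filter on low counts through the LATS1/2-KO libraries alone, and its call is a description. Of all genes tested in this lineage 64.7% were called, 33.5% higher and 31.1% lower, so that a call is common there. On the TMM scale the libraries of the genotypes did not overlap for 8 of the 10 genes, against 84.4% of all genes. The median log2 fold change was 0.54 over the 10 genes and 0.01 over all genes tested. Calls are by edgeR's quasi-likelihood test on the 4 sums at an adjusted p under 0.05, and log2 fold changes are given ± SE with n = 2 libraries per genotype.

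The co-activator genes were not called in luminal ER- cells. Yap1 stood at 37.6 and 33.6 CPM in CTL and 34.9 and 41.4 CPM in LATS1/2-KO, so the genotypes overlapped on this scale, though not after TMM scaling. Its log2 fold change was -0.23 ± 0.11, with an interval of 2 SE from -0.46 to -0.01 and an adjusted p of 0.109, and without LATS1/2-KO replicate 2 it was called lower (-0.35, adjusted p = 0.0320). Wwtr1 stood at 131 and 111 against 124 and 141 CPM, overlapping as well. The log2 fold change of Wwtr1 was -0.20 ± 0.11, with an interval from -0.42 to 0.03 and an adjusted p of 0.164.

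Tead1 and Tead4 rose in luminal ER- cells, while Tead3 was not called. Tead1 stood at 33.4 and 31.6 CPM in CTL and 128 and 118 CPM in LATS1/2-KO, a log2 fold change of 1.59 ± 0.09 (adjusted p = 2.69e-05). Tead4 stood at 2.39 and 3.40 against 12.3 and 13.02 CPM, a log2 fold change of 1.81 ± 0.20 (adjusted p = 0.000302). For both genes the 2 genotypes were far apart. Tead3 stood at 11.3 and 11.1 against 14.2 and 13.7 CPM, and its log2 fold change after scaling was -0.02 ± 0.11 (adjusted p = 0.892).

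The VGLL cofactors moved in opposite directions in luminal ER- cells. Vgll3 went from 1 UMI in each CTL library to 310 and 451 UMIs, or 12.9 and 16.6 CPM, in LATS1/2-KO, so it passed the filter on low counts through the LATS1/2-KO libraries alone, and its call is given as a description. The ratio of the summed levels was 358, with a 95% counting interval from 98.6 to 2958 that covers counting error only. Vgll4 fell from 133 and 111 CPM to 83.6 and 94.0 CPM, a log2 fold change of -0.79 ± 0.11 (adjusted p = 0.00106). Of the called genes, Vgll3, Vgll4 and Amotl2 have the TEAD core in the promoters shown above, and Amot has none in the promoter searched. No promoter was found for Tead1 and Tead4, which were also called. Yap1, Wwtr1 and Tead3, which were not called, have the core. The part of TEAD binding in these levels was not tested.

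Of the angiomotin genes, Amot and Amotl2 rose in luminal ER- cells. Amot stood at 8.46 and 8.18 CPM in CTL and 44.4 and 55.7 CPM in LATS1/2-KO, a log2 fold change of 2.26 ± 0.13 (adjusted p = 2.69e-05). Amotl2 stood at 50.9 and 54.7 against 120 and 131 CPM, a log2 fold change of 0.92 ± 0.09 (adjusted p = 0.000207). The genotypes did not overlap for either gene. Amotl1 stood at 62.6 and 60.2 against 81.8 and 91.8 CPM, but its log2 fold change after scaling was 0.17 ± 0.09 (adjusted p = 0.146).

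Scaling matters for the smaller of these differences. With plain library totals in place of TMM the median of all genes in luminal ER- cells shifted from 0.01 to 0.34, the share of calls that were higher went from 51.9% to 70.8%, and Tead3 (0.31) and Amotl1 (0.50) were called higher as well, while the 6 genes called above kept their directions. With plain totals 9 of the 10 genes lay above 0, against 6 with TMM. Yap1 and Wwtr1 thus changed sign, with mean levels of 35.6 and 121 CPM in CTL and 38.1 and 133 CPM in LATS1/2-KO. The larger differences moved when a cluster was left out. Without the cluster led by cell cycle genes, which was nearly all LATS1/2-KO, Tead1 and Amot were higher by 0.61 each (adjusted p = 0.00455 and 0.0172) and Tead4 by 1.30 (adjusted p = 0.00424), Vgll4 was lower with -0.46 (adjusted p = 0.0174), and Amotl2 turned to -0.43 (adjusted p = 0.0109). Vgll3 was then at 11 and 14 UMIs in the Wfdc18-led cluster of LATS1/2-KO, against 1 and 0 UMIs in the CTL cluster. When single cells were assigned by a marker gate in place of clusters, Amotl2 was at 0.07 and not called (adjusted p = 0.641), Amot at 1.08 and Tead1 at 1.01.

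**Figure D2:**
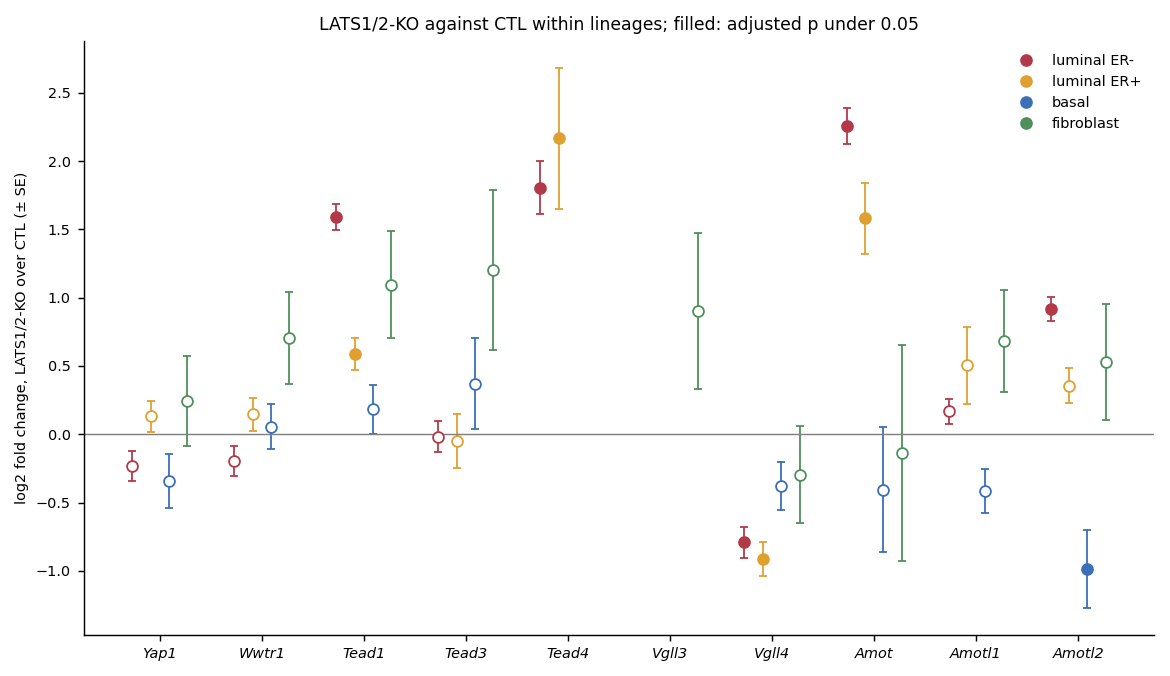
Log2 fold change of LATS1/2-KO over CTL (y axis, ± SE, n = 2 libraries per genotype) for each gene (x axis) in luminal ER-, luminal ER+, basal and fibroblast cells; filled points have an adjusted p under 0.05 and open points do not. Vgll3 in luminal ER- cells (1 UMI in each CTL library) and untested genes are not drawn; Amot is at 2.26 in luminal ER- and 1.58 in luminal ER+ cells, and Vgll4 is below 0 in all 4.

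Among 3 epithelial clusters of LATS1/2-KO, those led by Wfdc18, by cell cycle genes and by Igfbp2, Amot, Amotl2, Tead1 and Tead4 were ordered alike in both libraries. These are descriptions without a test, since clusters are cut from the same cells. Amot stood at 13.8 and 17.6 CPM in the Wfdc18-led cluster, 59.4 and 83.5 CPM in the cell cycle cluster and 225 and 255 CPM in the unnamed Igfbp2-led cluster. Amotl2 followed the same order with 45.7 and 51.3, then 156 and 189, then 444 and 399 CPM. In CTL luminal ER- cells of the main cluster Amotl2 was at 50.8 and 54.7 CPM, above the lower of the Wfdc18-led values and close to the higher one.

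Tead1 and Tead4 were ordered in the same way. Tead1 stood at 66.9 and 56.6 CPM in the Wfdc18-led cluster, 159 and 163 CPM in the cell cycle cluster and 225 and 223 CPM in the Igfbp2-led cluster. Tead4 stood at 7.95 and 9.43, then 14.4 and 15.6, then 22.9 and 20.5 CPM. Vgll3 was low in the Wfdc18-led cluster (1.39 and 1.22 CPM), and its libraries in the cell cycle cluster (18.6 and 27.8 CPM) and the Igfbp2-led cluster (21.2 and 37.9 CPM) overlapped.

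Vgll4 and Wwtr1 had a lower level in the cell cycle cluster than in the other 2 of these 3 clusters. Vgll4 stood at 103 and 117 CPM in the Wfdc18-led, 74.0 and 77.1 CPM in the cell cycle and 92.9 and 95.5 CPM in the Igfbp2-led cluster. Wwtr1 stood at 158 and 179, then 108 and 114, then 134 and 149 CPM. Yap1 spanned 33.9 to 64.2 CPM over the same sums, with the Igfbp2-led cluster highest at 52.5 and 64.2 CPM. The Igfbp2-led cells were shallower than the cells of the cell cycle cluster, with medians of 4402 and 15652 UMIs per cell, and had more mitochondrial UMIs, with a median of 9.75% against 3.30% in the cell cycle and 3.75% in the Wfdc18-led cluster. A limit of 10% mitochondrial UMIs removed 512 of the 1063 Igfbp2-led cells (48.2%). The part of depth and RNA quality in these values was not tested.

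**Figure D3:**
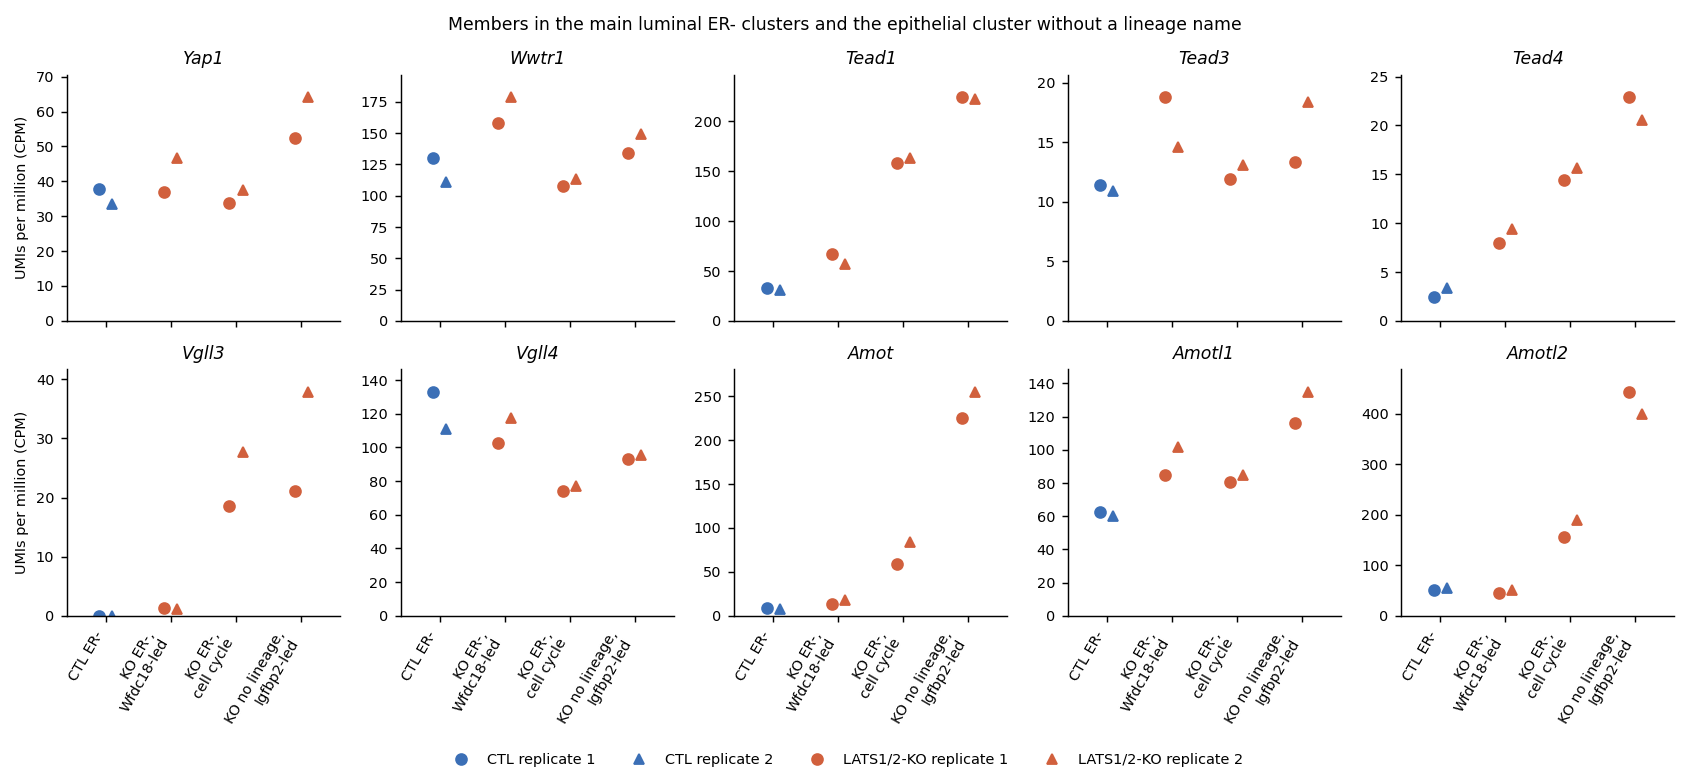
Level of each gene (y axis, CPM, from 0) in the main CTL luminal ER- cluster and 3 LATS1/2-KO clusters (x axis; KO stands for LATS1/2-KO), with circles for replicate 1 and triangles for replicate 2. Tead1, Tead4, Amot and Amotl2 increase from the Wfdc18-led to the Igfbp2-led cluster, and Amotl2 in the Wfdc18-led cluster (45.7 and 51.3 CPM) is near the CTL level.

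In luminal ER+ cells, where 9 of the 10 genes could be tested, Tead1, Tead4 and Amot were higher in LATS1/2-KO and Vgll4 was lower, against 28.6% of all genes called in this lineage, 14.4% higher and 14.2% lower. The genotypes did not overlap for 6 of the 9, against 69.4% of all genes. Tead1 stood at 24.2 and 24.5 CPM in CTL and 36.4 and 38.1 CPM in LATS1/2-KO, a log2 fold change of 0.59 ± 0.12 (adjusted p = 0.0150). Tead4 rested on few transcripts, 15 and 41 UMIs against 27 and 12 UMIs, or 0.809 and 2.11 against 6.14 and 7.61 CPM, a log2 fold change of 2.17 ± 0.52 (adjusted p = 0.0247). Amot stood at 3.23 and 3.49 against 9.10 and 12.1 CPM, a log2 fold change of 1.58 ± 0.26 (adjusted p = 0.00798). None of these 3 overlapped between genotypes.

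Vgll4 in luminal ER+ cells fell from 63.9 and 61.7 CPM to 35.3 and 31.1 CPM, a log2 fold change of -0.92 ± 0.12 (adjusted p = 0.00421). Vgll3 had 8 and 2 UMIs in LATS1/2-KO and was not tested. Amotl2 stood at 30.5 and 35.4 against 41.6 and 44.4 CPM and was not called, with a log2 fold change of 0.35 ± 0.13 (adjusted p = 0.0827). Yap1, Wwtr1, Tead3 and Amotl1 had log2 fold changes between -0.05 and 0.51 and were not called.

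Free RNA from other cells bears on the low genes here. The level of Amot that free RNA could give was 4.30 and 4.20 CPM in the LATS1/2-KO luminal ER+ sums, and after its subtraction Amot (0.97) and Tead1 (0.35) were no longer called, whereas Tead4 (2.18) and Vgll4 (-1.01) were. Tead1 was also not called by DESeq2 (adjusted p = 0.0503), without the highest doublet scores (0.43) or without LATS1/2-KO replicate 1 (0.59), and Tead4 was not called without LATS1/2-KO replicate 1 (2.32) or replicate 2 (2.07). In 4 other ways of clustering, 273 to 669 of the 1063 Igfbp2-led cells received the name luminal ER+, and 7 of the genes were then higher, while Vgll4 lost its call in 3 of the 4. The share of all genes called was not computed for these alternatives.

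In basal cells, which Krt8-CreERT2 does not aim at, Amotl2 was the 1 gene called among the 8 tested. Some of these cells were EYFP+, 13 of 364 and 23 of 467 in LATS1/2-KO against 1 of 196 and 2 of 161 in CTL. Whether the EYFP+ cells came from luminal cells was not tested. Of all genes tested in this lineage 33.8% were called, 17% higher and 16.8% lower, and the genotypes did not overlap for 6 of the 8, against 68.1% of all genes. Amotl2 stood at 31.4 and 59.97 CPM in CTL and 20.9 and 27.7 CPM in LATS1/2-KO, a log2 fold change of -0.99 ± 0.28 (adjusted p = 0.0110). The LATS1/2-KO values lay near the 27.8 and 21.2 CPM that free RNA could give. The call was lost without CTL replicate 2 (-0.48, adjusted p = 0.360) and with DESeq2 (adjusted p = 0.0962), and it turned to 1.60 with the per-cell marker gate.

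The other genes were not called in basal cells. Yap1 stood at 61.3 and 73.1 CPM in CTL and 49.7 and 63.3 CPM in LATS1/2-KO, a log2 fold change of -0.34 ± 0.20 (adjusted p = 0.201). Amotl1, which basal cells hold at a high level, stood at 161 and 149 against 117 and 133 CPM, a log2 fold change of -0.41 ± 0.16 with an adjusted p of 0.0515, and it was called lower in 8 of the alternatives, such as without LATS1/2-KO replicate 2 (-0.52, adjusted p = 0.0235). Wwtr1, Tead1, Tead3, Vgll4 and Amot had log2 fold changes between -0.41 and 0.37. Tead4 went from no UMI in CTL to 8 and 3 UMIs in LATS1/2-KO, and both genotypes were at or near the limit of 2.17 CPM, so no fold is given. Vgll3 stood at 4.28 and 4.39 against 6.51 and 7.87 CPM, a ratio of 1.68 with a counting interval from 0.704 to 4.88.

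In fibroblasts, of which CTL libraries held 60 and 25 cells and LATS1/2-KO libraries 333 and 974, no gene of the 10 was called by edgeR among the 9 tested, against 3.4% of all genes tested, 1.51% higher and 1.89% lower. The genotypes did not overlap for 8 of the 9, against 53% of all genes. DESeq2 called 0 of them, and 1 had an unadjusted p under 0.05. This was Tead1, at 30.8 and 47.7 CPM in CTL and 87.1 and 63.9 CPM in LATS1/2-KO, a log2 fold change of 1.096 ± 0.39 (adjusted p = 0.168). The fibroblasts differed in subtype between genotypes, with 2 and 0 myCAF-like cells in CTL and 208 and 234 in LATS1/2-KO. In iCAF-like cells alone Tead1 stood at 34.0 and 47.7 CPM in CTL and 52.7 and 50.7 CPM in LATS1/2-KO, with 0.46 ± 0.39 on the log2 scale (adjusted p = 0.490). Wwtr1 stood at 120 and 63.7 against 166 and 135 CPM, a log2 fold change of 0.70 ± 0.34 (adjusted p = 0.293). Yap1 stood at 50.1 and 55.7 against 57.3 and 59.4 CPM, a log2 fold change of 0.24 ± 0.33 (adjusted p = 0.749). The interval of 2 SE for Yap1 ran from -0.42 to 0.90, so that a change of that size was not detectable with so few CTL cells.

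In endothelial cells none of the 7 genes tested was called by edgeR or DESeq2, against 6.83% of all genes by edgeR, 3.16% higher and 3.67% lower, and 1 had an unadjusted p under 0.05. That gene was Vgll4, at 94.3 and 103 CPM in CTL and 56.1 and 47.6 CPM in LATS1/2-KO, without overlap (4 of the 7 genes, against 53% of all genes, did not overlap) and with a log2 fold change of -0.88 ± 0.29 (adjusted p = 0.0875). Yap1 stood at 49.2 and 46.6 against 65.6 and 74.6 CPM, a log2 fold change of 0.59 ± 0.32 (adjusted p = 0.332). Wwtr1 stood at 205 and 177 against 257 and 228 CPM, a log2 fold change of 0.38 ± 0.23 (adjusted p = 0.389). In lymphocytes only Vgll4 passed the filter on low counts, at 365 and 286 against 139 and 312 CPM with a log2 fold change of -0.46 ± 0.36 (an unadjusted p of 0.226, adjusted p = 0.704 by edgeR, against 2.37% of all genes called, 1.79% higher and 0.572% lower). DESeq2 did not call it either. Without LATS1/2-KO replicate 2 it was called (-1.45, adjusted p = 0.0404), but that fit has 1 LATS1/2-KO library of 35 cells and 10 Vgll4 UMIs, assumed to vary like the CTL libraries. Macrophages were not compared, since CTL libraries held 10 and 8 of them, and in LATS1/2-KO macrophages Vgll4 (38.4 and 39.0 CPM) stood above the 11.8 and 11.6 CPM that free RNA could give.

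The LATS1/2-KO effect, as a signed log2 fold change, was then compared between lineages with the mouse as a block. Between luminal ER- and luminal ER+ cells, 2 of the 10 genes differed, against 28.1% of all genes. These were Tead1, whose log2 change was 1.04 ± 0.14 larger in luminal ER- cells (adjusted p = 0.000379), and Amotl2, by 0.56 ± 0.13 (adjusted p = 0.00870). For Amot the difference was 0.65 ± 0.23 (adjusted p = 0.0592), and for Vgll4 it was 0.12 ± 0.15, with an interval of 2 SE from -0.18 to 0.42.

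Between luminal ER- and basal cells 7 genes differed, against 26.1% of all genes. Tead1 (1.24 ± 0.18, adjusted p = 6.71e-08) and Amot (2.50 ± 0.52, adjusted p = 8.49e-05) had the larger change in luminal ER- cells. Amotl2 (1.73 ± 0.26, adjusted p = 8.28e-08) and Amotl1 (0.41 ± 0.15, adjusted p = 0.0315) had the higher signed value there. Their log2 fold changes were 0.92 and 0.17 in luminal ER- but -0.99 and -0.41 in basal cells. Amotl2 in LATS1/2-KO basal cells lay near the level that free RNA could give. Vgll4 (-0.58 ± 0.17, adjusted p = 0.00737) and Wwtr1 (-0.42 ± 0.15, adjusted p = 0.0330) had the lower signed value in luminal ER- cells. The seventh was Vgll3, whose difference rests on 1 UMI in each CTL luminal ER- sum and is not read as a result. Without the mouse as a block Vgll4, Wwtr1 and Amotl1 were not called in this comparison (adjusted p = 0.0591, 0.134 and 0.124). Before scaling, mean Wwtr1 went from 121 to 133 CPM in luminal ER- and from 119 to 133 CPM in basal cells. Mean Vgll4 went from 122 to 88.8 and from 83.0 to 68.5 CPM. The differences for these 2 genes thus depend on the scaling.

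Between luminal ER- cells and fibroblasts 3 genes differed, against 13.4% of all genes. Amot (2.34 ± 0.86, adjusted p = 0.0484) had the larger change in luminal ER- cells and Wwtr1 the lower one (-0.97 ± 0.32, adjusted p = 0.0195). The third was Vgll3, with the same 1 UMI in each CTL luminal ER- sum. For Tead1 the difference was 0.43 ± 0.45, with an interval of 2 SE from -0.47 to 1.32, so that the Tead1 changes of these 2 lineages were not distinguished. Without the block neither Amot nor Wwtr1 was called (adjusted p = 0.133 and 0.117). The 3 comparisons share the luminal ER- sums.

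EYFP, which records Cre action, splits the luminal ER- cells of LATS1/2-KO into cells with at least 1 EYFP UMI, 482 of 2155 in replicate 1 and 600 of 2184 in replicate 2, and the rest. In CTL luminal ER- cells, which lack Cre, 8 of 3000 and 8 of 2156 cells had an EYFP UMI. Between EYFP+ and EYFP- cells, with the mouse as a block, 5 of the genes were higher (Tead1, Tead4, Vgll3, Amot and Amotl2) and 2 lower (Wwtr1 and Vgll4), against 40.2% of all genes called, 19.4% higher and 20.8% lower. The EYFP+ and EYFP- sums did not overlap for 7 of the 10, against 62.4% of all genes. A cell without an EYFP UMI may still have recombined, and EYFP+ cells were deeper (medians of 14509.5 and 17023 UMIs) than EYFP- cells (7812 and 7792).

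Amot stood at 34.0 and 32.7 CPM in EYFP- cells and 65.4 and 89.0 CPM in EYFP+ cells, a log2 fold change of 1.19 ± 0.10 (adjusted p = 1.98e-08). Amotl2 stood at 99.5 and 89.8 against 161 and 190 CPM, a log2 fold change of 0.88 ± 0.08 (adjusted p = 3.88e-08). Vgll3 stood at 9.55 and 8.97 against 19.7 and 27.6 CPM, a log2 fold change of 1.34 ± 0.14 (adjusted p = 2.88e-07). In each library these 3 genes were higher in the EYFP+ cells. Tead1 stood at 114 and 89.9 against 159 and 159 CPM, a log2 fold change of 0.64 ± 0.08 (adjusted p = 1.58e-06). Tead4 stood at 10.5 and 10.7 against 15.8 and 16.3 CPM, a log2 fold change of 0.58 ± 0.13 (adjusted p = 0.00162).

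The 2 genes that were lower changed little in size. Wwtr1 stood at 131 and 156 CPM in EYFP- and 111 and 120 CPM in EYFP+ cells, a log2 fold change of -0.32 ± 0.07 (adjusted p = 0.000889). Vgll4 stood at 86.3 and 101 against 78.0 and 83.5 CPM, a log2 fold change of -0.23 ± 0.08 (adjusted p = 0.0195). Yap1 stood at 35.3 and 40.9 against 34.0 and 42.03 CPM, overlapping, with a log2 fold change of -0.02 ± 0.09 and an interval of 2 SE from -0.20 to 0.16. Tead3 and Amotl1 were not called either. With every cell thinned to 2000 UMIs Tead4, Wwtr1 and Vgll4 were no longer called, nor were they without the mouse as a block.

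Most EYFP+ cells lay in the cluster led by cell cycle genes, 407 and 472 of them, where 39.1% and 56.3% of cells were EYFP+, against 6.74% and 9.52% in the other luminal ER- clusters. Within the cell cycle cluster Amot (0.53 ± 0.07, adjusted p = 4.65e-05), Amotl2 (0.33 ± 0.05, adjusted p = 0.000316), Vgll3 (0.44 ± 0.11, adjusted p = 0.0291) and Tead1 (0.20 ± 0.05, adjusted p = 0.0198) were higher in EYFP+ cells, while Wwtr1, Vgll4 and Tead4 were not called. In the other clusters, with 75 and 128 EYFP+ cells, Amot alone was called, at 13.3 and 14.1 CPM in EYFP- and 18.1 and 40.6 CPM in EYFP+ cells (1.19 ± 0.23, adjusted p = 6.50e-05). Tead1 was there at 67.5 and 56.2 against 61.1 and 59.5 CPM, overlapping, with -0.02 ± 0.15 (adjusted p = 0.989). Amot was thus higher in EYFP+ cells of both mice in both settings, which share the same 2 mice. Outside the cell cycle cluster the EYFP+ values rested on 13 Amot UMIs in replicate 1 and 60 in replicate 2.

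**Figure D4:**
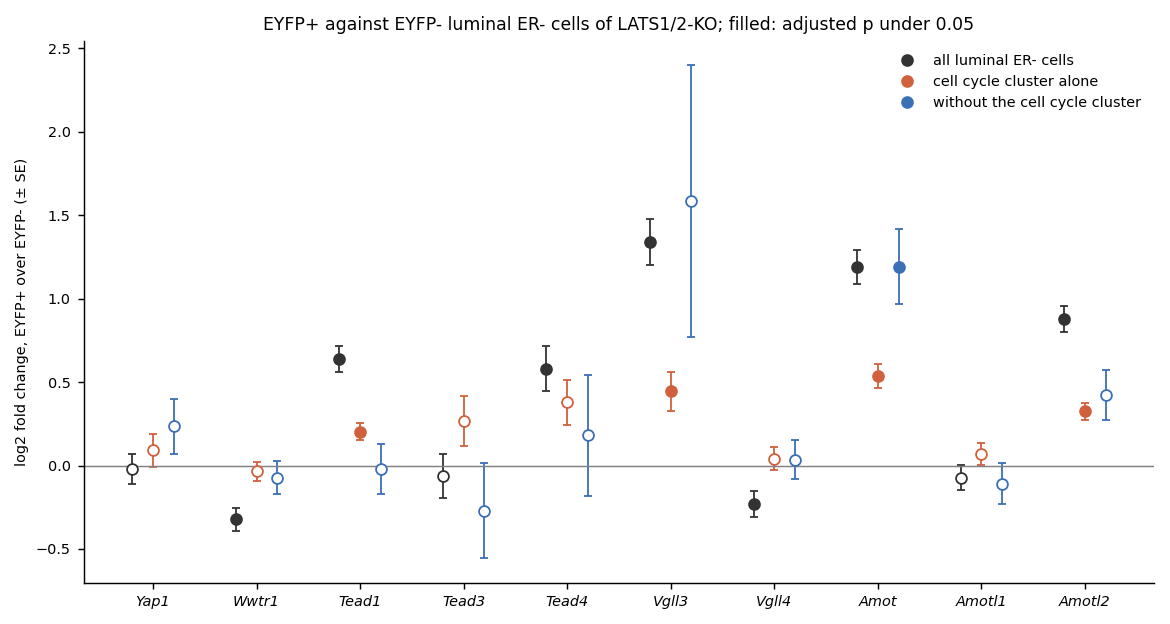
Log2 fold change of EYFP+ over EYFP- luminal ER- cells of LATS1/2-KO (y axis, ± SE, 2 libraries with the mouse as a block) for each gene (x axis), over all these cells, within the cell cycle cluster and without it; filled points have an adjusted p under 0.05. Amot is filled in all 3 settings (1.19, 0.53 and 1.19), and Tead1 drops from 0.64 to -0.02 without the cell cycle cluster.

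Stromal subtypes were compared within the 2 LATS1/2-KO libraries, where iCAF-like cells numbered 125 and 740, myCAF-like cells 208 and 234, and PVL-like cells 47 and 66. iCAF, myCAF and PVL are names for inflammatory and myofibroblastic cancer-associated fibroblasts and for perivascular-like cells, given here from markers. Of the 9 genes tested, Tead1 and Vgll3 were higher in myCAF-like than in iCAF-like cells, against 24.5% of all genes called, 12.9% higher and 11.5% lower, and 5 of the 9 did not overlap, against 56.9% of all genes. Tead1 stood at 103 and 99.4 CPM in myCAF-like and 52.7 and 50.7 CPM in iCAF-like cells, a log2 fold change of 0.97 ± 0.20 (adjusted p = 0.000121). Vgll3 stood at 34.3 and 61.7 against 6.20 and 27.5 CPM, a log2 fold change of 1.36 ± 0.28 (adjusted p = 0.000104). This value rested on 4 UMIs in the iCAF-like cells of replicate 1. Without the mouse as a block Vgll3 was not called (1.13, adjusted p = 0.0786). RNA quality differed between the subtypes, since 254 of the 444 myCAF-like cells lay in a cluster with a median of 12.4% mitochondrial UMIs, against 2.42% in the iCAF-like cluster. With a limit of 10% mitochondrial UMIs, an alternative chosen after seeing the data that left 228 myCAF-like cells, Tead1 was higher by 0.64 ± 0.20 (adjusted p = 0.0480) and Vgll3 by 1.39 ± 0.32 (adjusted p = 0.0111).

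Between PVL-like and iCAF-like cells Tead1 alone was called, higher in PVL-like cells at 110 and 98.2 CPM with a log2 fold change of 0.84 ± 0.30 (adjusted p = 0.0387), against 19.2% of all genes called, 8.4% higher and 10.8% lower, and 5 of the 9 genes did not overlap, against 54.8% of all genes. Between myCAF-like and PVL-like cells Vgll3 (3.41 ± 0.73, adjusted p = 0.000232) and Amotl1 (0.95 ± 0.35, adjusted p = 0.0408) were higher in myCAF-like cells, against 21.3% called, 11.9% higher and 9.41% lower, and 6 of the 9 did not overlap, against 57.6% of all genes. With the 10% limit Tead1 in PVL-like against iCAF-like cells was at 0.43 ± 0.26 and not called (adjusted p = 0.315). PVL-like cells held 1 UMI of Vgll3 in each library, or 7.35 and 4.27 CPM. Amotl1 stood at 98.0 and 81.6 CPM in myCAF-like and 36.7 and 59.8 CPM in PVL-like cells, and without the block it was not called. The 3 contrasts share their sums in pairs.

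The remaining contrasts between stromal subtypes were not called, though 3 of them were over 2 SE. These were Amotl1 (0.48 ± 0.20, adjusted p = 0.0728) and Wwtr1 (0.41 ± 0.19, adjusted p = 0.119) in myCAF-like minus iCAF-like cells and Vgll3 in PVL-like minus iCAF-like cells (-2.05 ± 0.86, adjusted p = 0.0909). Yap1 stood at 57.3 and 59.9 CPM in iCAF-like and 57.2 and 58.2 CPM in myCAF-like cells, a log2 difference of -0.07 ± 0.23. In the PVL-like cells the libraries of Yap1 were far apart, at 103 and 25.6 CPM from 14 and 6 UMIs. Wwtr1 stood at 144 and 122 CPM in iCAF-like cells, at 177 and 169 CPM in myCAF-like cells and at 125 and 214 CPM in PVL-like cells and was not called in any contrast. Amot was within 2-fold of the free RNA estimate in iCAF-like cells (10.8 and 14.02 against 9.46 and 7.08 CPM), and Tead4 gave 0 to 8 UMIs per sum and was not tested.

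**Figure D5:**
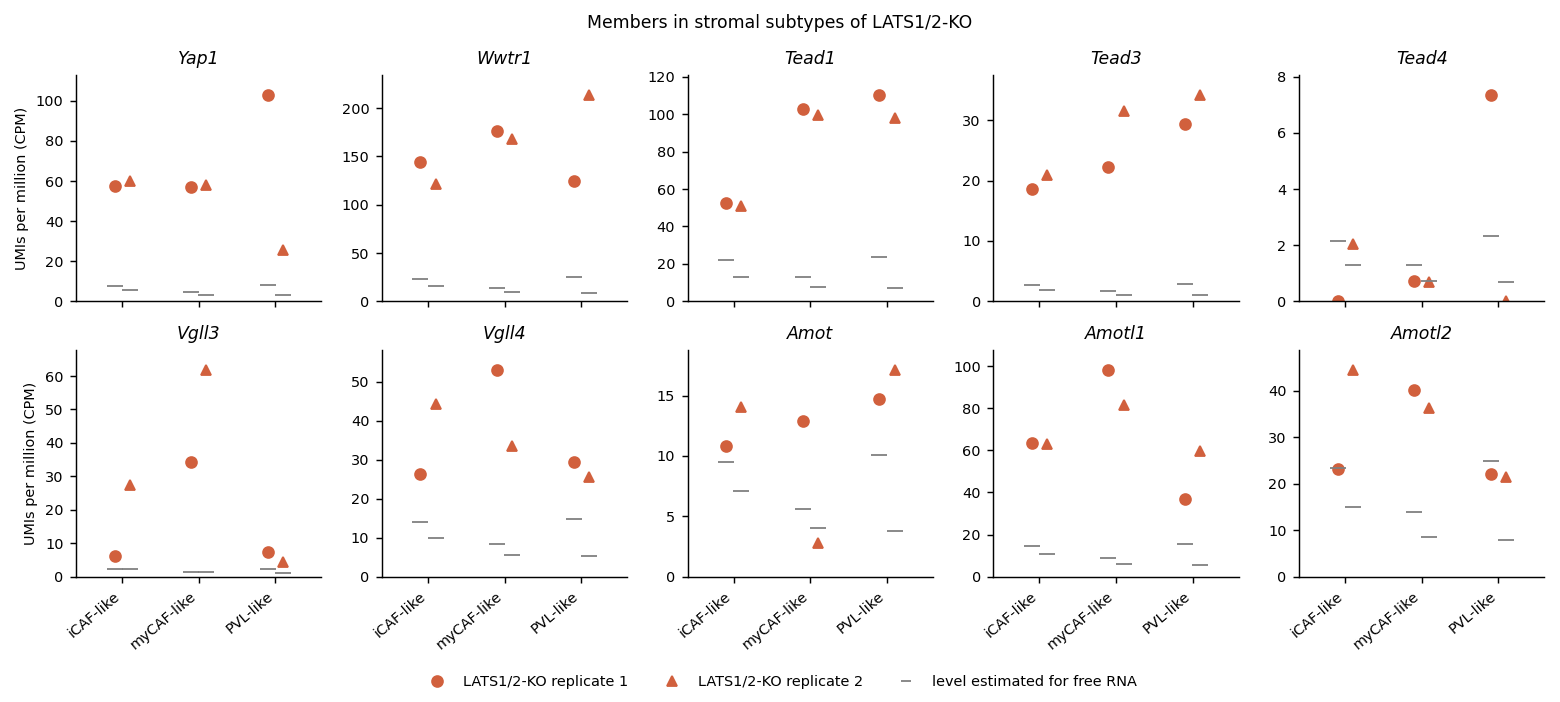
Level of each gene (y axis, CPM, from 0) in stromal subtypes of LATS1/2-KO (x axis), with circles for replicate 1, triangles for replicate 2 and grey dashes for the level that free RNA could give. Tead1 is near 50 CPM in iCAF-like and near 100 CPM in myCAF-like and PVL-like cells in both libraries.

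The other genes of the pathway were described by 3 lists. Of 21 Hippo kinases and regulators, 20 were tested in luminal ER- cells, 7 were higher and 3 lower, with a median log2 fold change of 0.09, where 33.5% of all genes were higher and 31.1% lower, so that the list's share of higher genes is near the background. Among them Ajuba, a LIM protein that inhibits LATS, was higher by 3.40 ± 0.17 (adjusted p = 1.59e-05), and Wwc2, a scaffold that activates LATS, by 0.72 ± 0.12 (adjusted p = 0.00197). Lats1 was lower with -1.15 ± 0.11 (adjusted p = 0.000166). Lats1 and Lats2 are the genes deleted by design, and both are part of this list. Of 16 other binding proteins of YAP, TAZ and TEADs, 15 were tested, 5 were higher and 6 lower, with a median of 0.02. The same 33.5% and 31.1% of all genes apply, so this list's share of higher genes is also near the background. Ptpn14, a phosphatase that binds YAP, was higher by 2.48 ± 0.14 (adjusted p = 2.11e-05), and Sfn, a 14-3-3 protein, was lower with -2.61 ± 0.13 (adjusted p = 1.68e-05), whereas Vgll1 was called higher (adjusted p = 0.000325) at means of 0.0213 CPM in CTL and 1.57 CPM in LATS1/2-KO after scaling, too low in CTL for a fold change to be given.

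Of 19 YAP/TAZ targets, 18 were tested in luminal ER- cells, 11 were higher and 3 lower (all genes 33.5% and 31.1%), with a median log2 fold change of 1.99 against 0.01 over all genes tested. The largest changes were in Ankrd1 (6.35 ± 0.63, adjusted p = 0.000205), Ctgf (5.28 ± 0.27, adjusted p = 1.82e-05) and Nt5e (5.21 ± 0.30, adjusted p = 2.41e-05). In luminal ER+ cells 8 of 18 targets were higher and 1 lower (all genes 14.4% and 14.2%) with a median of 0.54, and Ctgf rose by 4.92 ± 0.26 (adjusted p = 0.000335). In basal cells 5 of 15 were higher and 4 lower (all genes 17% and 16.8%) with a median of 0.19. In fibroblasts 2 of 16 were higher and 1 lower (all genes 1.51% and 1.89%), where Igfbp3 rose by 4.17 ± 0.48 (adjusted p = 0.00551) and F3 fell with -2.63 ± 0.33 (adjusted p = 0.00796).

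The kinase and regulator list had 5 of 19 genes higher and 1 lower in luminal ER+ cells (all genes 14.4% and 14.2%) and 4 of 20 higher and 2 lower in basal cells (all genes 17% and 16.8%, near the list's share of higher genes), and Map4k4, an upstream kinase, was higher in both (1.32 ± 0.11 and 1.36 ± 0.17, adjusted p = 0.00114 and 4.30e-06). Ptpn14 was lower in basal cells with -1.49 ± 0.18 (adjusted p = 4.07e-06). Between EYFP+ and EYFP- luminal ER- cells 10 of 18 targets were higher and 3 lower (all genes 19.4% and 20.8%) with a median of 0.50. Of these, Nuak2 was higher by 1.30 ± 0.13 (adjusted p = 1.58e-07) and Nt5e lower with -1.34 ± 0.16 (adjusted p = 1.73e-06). In myCAF-like against iCAF-like cells 8 of 17 targets were higher and 3 lower (all genes 12.9% and 11.5%) with a median of 0.45, and Ctgf was higher by 1.93 ± 0.18 (adjusted p = 7.50e-13).

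The genes whose level was most like each member but Amotl1 over the 33 sums of at least 20 cells were named by Pearson's r of log2(CPM + 1), among 6267 genes and with no test; sums of 1 library share depth and free RNA. For Wwtr1 the nearest were Afap1, Bmpr2 and Yap1 (r = 0.91, 0.91 and 0.90), and for Yap1 they were Npdc1, Osmr and Tcaf1 (0.94, 0.92 and 0.90). For Tead1 they were Zfp637, Tcaf1 and Trip6 (0.91, 0.89 and 0.89), for Tead3 Bmpr1a, Smarcb1 and Rab18 (0.85, 0.83 and 0.81) and for Tead4 Tmod3, Edn1 and Podxl (0.78, 0.77 and 0.77). For Vgll3 the nearest were Plod2, Dcbld2 and Samd4 (0.85, 0.84 and 0.84) and for Vgll4 Spty2d1, Slbp and Smchd1 (0.86, 0.84 and 0.83). For Amot they were Amotl2, Cyr61 and Tmem43 (0.83, 0.81 and 0.80) and for Amotl2 Erlin2, Arhgap35 and Arhgap21 (0.87, 0.86 and 0.85). Ranks gave a lower likeness for some pairs. Spearman's rho was 0.58 for Wwtr1 with Afap1, 0.62 for Wwtr1 with Yap1 and 0.63 for Yap1 with Npdc1. Over the pairs named here it ran from 0.58 (Amot with Amotl2) to 0.88 (Vgll3 with Plod2).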

How the data were processed

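Live cells of 4 mouse mammary glands, 1 library per mouse, were profiled by droplet 3′ sequencing. The authors deposited UMI counts per gene and cell; the submitters' processing notes name Cell Ranger 3.1.0 and mm10, and the matrix headers name version 6.1.2. Barcodes passed at over 500 detected genes and less than 20% mitochondrial UMIs. They were normalized with sctransform 0.4.2 and clustered with Seurat 5.3.0 on 3000 variable genes (less 33 genes of the lists, 6 of them members) and 20 principal components, at resolution 0.4 for lineages and 0.8 for stromal cells. A cluster was named from at least 3 markers, an epithelial one from markers at 2-fold the free RNA level with a lead of 2 over the next lineage. Scrublet in scanpy 1.11.5 called 85 cells, too few to use, so leaving out the highest 5% of scores was an alternative. The members, marker limits and gene lists were chosen with earlier results of these data known.

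Counts were summed per library and lineage and tested with edgeR 4.0.16 (quasi-likelihood F test, TMM, its low-count filter, Benjamini-Hochberg adjustment over all genes tested, threshold 0.05), for lineages with at least 20 cells in each library. EYFP and stromal contrasts and differences between lineages had the mouse as a block. SE is the log2 fold change divided by the square root of F. All 10 members were named; pathway genes were named from up to 3 called genes per list and comparison with the largest absolute log2 fold change and no overlap of groups, and likeness from the 3 highest Pearson correlations among genes of at least 20 mean CPM (for Amotl1 not reported here). DESeq2 1.42.0 was an alternative. Scripts were tested on simulated data. With 2 mice per genotype, precision is limited by the number of mice; counting intervals and floors (3 UMIs, 95%) cover counting error only. Replicate numbers are not said to pair the libraries, which were treated as unpaired.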

Additional observations from a re-analysis of the deposited data

Results flagged for a closer look

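The LATS1/2-KO effect differed between lineages, by the test of the difference itself, for 12 pairs of gene and lineage. Against luminal ER+ cells the log2 change in luminal ER- cells was larger for Tead1 by 1.04 and for Amotl2 by 0.56. Against basal cells the difference was 1.24 for Tead1, 2.50 for Amot, 1.73 for Amotl2, 0.41 for Amotl1, 7.08 for Vgll3, -0.58 for Vgll4 and -0.42 for Wwtr1. The Vgll4 and Wwtr1 values against basal cells depend on the scaling. Mean Wwtr1 before scaling rose alike in luminal ER- (121 to 133 CPM) and basal cells (119 to 133 CPM). Against fibroblasts the difference was 6.85 for Vgll3, 2.34 for Amot and -0.97 for Wwtr1. The Vgll3 values rest on 1 UMI in each CTL luminal ER- library and are not read as results. Without the cell cycle cluster Amotl2 in luminal ER- cells was lower in LATS1/2-KO (-0.43), and the differences between lineages were not recomputed without that cluster.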

How the results depend on the processing

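In luminal ER- cells the calls of Tead1, Tead4, Amot and Vgll4 kept their direction and their side of the threshold in all alternatives run, and Amotl2 did not, turning to -0.43 without the cell cycle cluster, where 2 of the genes were lower. Vgll3 passed the filter through the LATS1/2-KO libraries alone, so its calls in the alternatives are not read as support. In luminal ER+ cells 7 of the genes were higher and 0 lower with a 10% mitochondrial limit (6249 genes called), at resolution 0.8 (5596) and with log-normalized counts, 7 were higher with the members kept among the clustering genes (5447), 6 with the per-cell gate, and 1 after free RNA subtraction or with thinned sums (2108). In basal cells DESeq2 called 1523 genes and 0 members, 2 members were lower with the doublet scores, free RNA or log-normalized alternatives, 3 with thinned sums, and the gate gave 5012 genes with 5 members higher and 2 lower (Amotl2 at 1.60). In fibroblasts 912 genes were called without the filter and 742 in iCAF-like cells alone. In endothelial cells DESeq2 called 270 genes, thinned sums 252 and no filter 0. In lymphocytes the counts were 49 with DESeq2, 184 without the filter, 32 with log-normalized counts, 14 after free RNA subtraction, 12 with thinned sums and 505 with the gate, where 4 members were higher. With RLE size factors 1 member was lower in the difference from luminal ER+ and 1 in that from basal cells. Between EYFP+ and EYFP- cells the counts were 1069 genes with cells thinned to 2000 UMIs and 466 in the cell cycle cluster alone, both with 0 members lower and Vgll4 at 0.040 in the latter, and 109 without it, with 1 member higher, 0 lower, Tead1 at -0.022 and Vgll4 at 0.035. Thinned stromal sums gave 581 genes with 1 member higher (myCAF-like minus iCAF-like), 861 genes (PVL-like minus iCAF-like) and 885 genes with 0 higher (myCAF-like minus PVL-like), without the highest doublet scores 1 member was lower in myCAF-like than iCAF-like cells, and the 10% mitochondrial limit, added after seeing the data, gave 0 members higher in PVL-like minus iCAF-like and 1153 genes in myCAF-like minus PVL-like cells. In the main setting 3580 of 12518 genes tested were called in luminal ER+ cells, 3160 of 9338 in basal cells and 91 of 3846 in lymphocytes. The share of all genes called was not computed for the alternatives. Their member counts can follow the number of genes called and are not read as results about the members. The causes were not tested.

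Leaving out 1 library at a time, where a lone library of a genotype was assumed to vary like the other genotype's, gave 7035 to 8302 genes in luminal ER- cells (5 to 5 members higher, 1 to 2 lower), 1371 to 3555 in luminal ER+ (1 to 3 higher, 1 to 1 lower), 2260 to 2443 in basal (0 to 2 lower), 3 to 588 in fibroblasts, 0 to 256 in endothelial cells and 68 to 213 in lymphocytes (0 to 1 lower). The count moved by over 1.5 times without either LATS1/2-KO library in luminal ER+ cells (1371 and 1989), without any 1 library in fibroblasts (3 and 54 without CTL replicates 1 and 2, 558 and 588 without LATS1/2-KO replicates 1 and 2) and endothelial cells (0 without either CTL library, 137 and 256 without LATS1/2-KO replicates 1 and 2), and without LATS1/2-KO replicate 1 in lymphocytes (213).

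Same-numbered libraries were treated as unpaired, since the labels do not say that the numbers pair mice. Their deviations correlated between -0.14 and 0.09 by lineage, which with 2 mice per genotype cannot exclude a pairing. With the replicate number as a block 878 genes were called in fibroblasts and 2 members were lower in basal cells; with the numbers crossed these counts were 592 and 2. Without the mouse as a block 820 genes and 0 members lower were called between EYFP+ and EYFP- cells, 1 member was higher in myCAF-like minus iCAF-like and 1 in myCAF-like minus PVL-like cells, 0 members were lower in the difference from basal cells, and 1 was higher and 0 lower in that from fibroblasts.

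With 2 mice per genotype, few CTL stromal cells and different clusters holding the luminal ER- cells of each genotype, composition and level per cell cannot be told apart in these sums.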
